A study of Mus musculus with 6 samples.

Results

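The proximal tubule recovers most of the filtered phosphate, bicarbonate, sodium and water. The carriers described here do that work: 4 sodium-phosphate cotransporters (Slc34a1, Slc34a3, Slc20a1 and Slc20a2), 2 scaffold proteins that hold carriers in the brush border (Slc9a3r1 and Pdzk1), the sodium-proton exchanger Slc9a3, the sodium-bicarbonate cotransporter Slc4a4, the membrane-bound carbonic anhydrase Car4 and the water channel Aqp1. They were chosen by gene name, and each of these 10 genes matched 1 row of the 54532 genes in the deposited tables. Kidney RNA came from 3 WT and 3 TRPM2-KO mice of the C57BL/6J strain, 1 library a mouse. The mice were labelled 6 to 8 weeks old, although the study's methods give an older range for cisplatin-treated males. The knockout is constitutive and lacks exons that encode transmembrane segments of TRPM2, a cation channel opened by oxidative stress; these mice are written Trpm2-/- here. Both genotypes had received 1 dose of 18 mg/kg cisplatin 72 h earlier, so no untreated kidney enters the comparison.

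Phosphate crosses the brush border together with sodium through the SLC34 proteins, whose amount in the membrane falls under parathyroid hormone and FGF23. Bicarbonate recovery needs a proton secreted in exchange for sodium by Slc9a3 and a carbonic anhydrase on the luminal membrane, Car4. Bicarbonate then leaves across the basolateral membrane through Slc4a4, and water follows through Aqp1. The sodium-phosphate cotransporters and Slc9a3 are driven by the inward sodium gradient.

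In Trpm2-/- kidneys, transcripts of the brush-border phosphate cotransporter Slc34a1 and of Aqp1 were far lower than in WT kidneys, by 6.64-fold and 3.68-fold. Car4, Slc34a3 and the scaffold Slc9a3r1 were lower as well. Slc4a4, Slc20a1 and Slc20a2 had log2 fold changes close to 0 and were not called. Of the 10 carriers, all passed the filter on low counts, 5 fell and 0 rose at an adjusted p under 0.05, where 7.28% of the 15816 genes tested fell and 4.74% rose. The adjusted p is from edgeR's quasi-likelihood test on counts with Benjamini-Hochberg adjustment over all genes tested, here and below. At the same adjusted threshold, DESeq2 called 6 carriers lower and 0 higher, where 1444 of the 15816 genes were lower and 1095 higher. The counts for limma-voom were also 6 and 0, where 1152 genes were lower and 698 higher. At the study's own threshold, an absolute log2 fold change above 1 with a p under 0.05, 4 were lower and 0 higher, against 4.10% and 3.50% of all genes. The genotypes did not overlap for 6 carriers, all lower in Trpm2-/- kidneys, against 16.8% of all genes that were lower without overlap and 16.7% that were higher. A log2 fold change below 0 was found for 7 carriers, against 48.4% of all genes. The median log2 fold change of the 10 was -0.68, and over all genes tested it was 0.02. With 1 mouse left out in turn, between 2 and 4 of the 10 carriers fell. The count was 2 without WT replicate 2 (521 of 16421 genes tested fell) or WT replicate 3 (470 of 16338). It was 3 without Trpm2-/- replicate 2 (1240 of 16281 genes). It was 4 without WT replicate 1 (957 of 16375 genes), Trpm2-/- replicate 1 (848 of 16325) or Trpm2-/- replicate 4 (1031 of 16251).

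**Figure D1:**
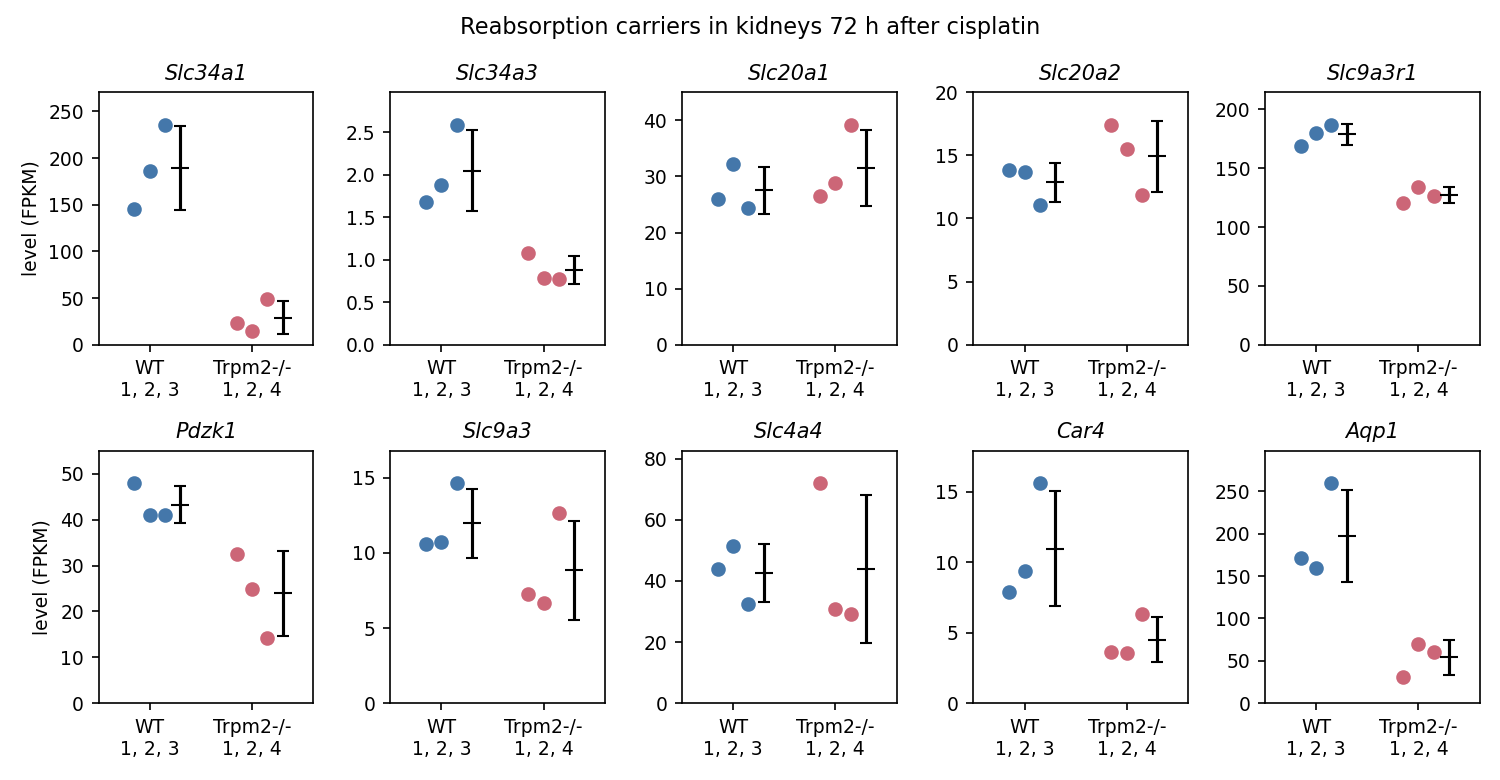
Level of each carrier (FPKM, vertical axis from 0) in every mouse, WT in blue and Trpm2-/- in red, with the mean and SD of each genotype (n = 3) in black. The 3 Trpm2-/- mice lie below all 3 WT mice for Slc34a1, Slc34a3, Slc9a3r1, Pdzk1, Car4 and Aqp1, and the genotypes overlap for the other 4 genes.

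Libraries held 14053307 to 17150089 counts on genes, so that 3 counts, taken as the floor, are 0.175 to 0.213 CPM (counts scaled to equal library totals), counting error only. Trpm2 had 5 to 27 counts in WT and 10 to 20 in Trpm2-/- libraries, and since a gene-level count includes the exons that remain in the allele, this does not check the genotype labels. Genes of the mitochondrial genome took 4.43% to 4.72% of counts in WT and 7.91% to 11.04% in Trpm2-/- libraries. Without them in the fit, 5 carriers fell, with 1121 of 15801 genes lower in that fit. Nothing in the labels says more about how the mice of a genotype relate to each other, so p-values measure the spread between these 6 kidneys. By the study's methods, WT mice were bought from a supplier, and the Trpm2-/- line came from the University of Leeds. Littermates are not mentioned there, so genotype and source of the mice cannot be told apart.

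The windows of 250 bases before the start sites of 3 carriers are shown because these genes cover the range of what was found: Slc34a1 and Aqp1 had the largest decreases, and Slc20a1 transports the same ion as Slc34a1 and was not called. Sequences are from RefSeq on GRCm38.p6, 5′ to 3′ on the strand of the gene (plus for all 3). Of the 10 carriers, 9 had an entry in that table, with 12 start sites. Capitals mark matches on either strand to GTTAAT (the half-site of HNF1, a proximal tubule transcription factor), CACGTG (E-box), GGGCGG (GC-box) and CCAAT, as well as to CAAAGTCCA (HNF4) and the TATA box letters TATAAA, which have no complete match in the printed bases. The start site of Slc34a1 in this table lies inside the gene's span in the deposited tables.
Slc34a1, chr13:55399398-55399647: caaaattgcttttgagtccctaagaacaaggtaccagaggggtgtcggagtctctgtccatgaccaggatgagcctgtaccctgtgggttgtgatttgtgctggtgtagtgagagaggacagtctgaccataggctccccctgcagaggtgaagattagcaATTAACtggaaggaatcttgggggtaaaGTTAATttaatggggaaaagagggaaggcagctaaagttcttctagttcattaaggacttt
Aqp1, chr6:55336049-55336298: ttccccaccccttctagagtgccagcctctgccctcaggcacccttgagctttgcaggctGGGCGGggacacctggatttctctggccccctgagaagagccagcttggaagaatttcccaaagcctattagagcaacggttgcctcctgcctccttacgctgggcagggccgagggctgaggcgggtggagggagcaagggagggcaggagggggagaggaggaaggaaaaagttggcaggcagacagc
Slc20a1, chr2:129198523-129198772: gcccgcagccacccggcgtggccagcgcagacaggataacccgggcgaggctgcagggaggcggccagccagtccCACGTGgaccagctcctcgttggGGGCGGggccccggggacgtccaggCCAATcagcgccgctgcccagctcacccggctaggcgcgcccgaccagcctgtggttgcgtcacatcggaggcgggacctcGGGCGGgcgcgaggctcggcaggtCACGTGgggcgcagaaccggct
In the full table windows, which go on for 50 bases after the start, Slc34a1 held 2 GTTAAT matches. It was the only one of the 9 carriers with an entry to hold any. Of 32807 promoters of the same length, 7.10% held at least 1. The percentages here are over single windows, whereas a carrier counts if any of its windows holds a match. The HNF4 letters occurred in 1 window, that of the first Pdzk1 start site, 14 bases after it, and in 0.476% of all promoters. The full HNF1 sequence, in which the half-site is followed after 1 base by its reverse complement, was in 0 of the carriers' windows and in 3 of all promoters. CACGTG (7.15% of promoters) was in the windows of Slc20a1 and Slc9a3, GGGCGG (35.6%) in those of 6 carriers, TATAAA (13.6%) in those of 3 and CCAAT (37.4%) in those of 5. These windows were 46.7% G or C for Slc34a1, 62.7% for Aqp1 and 73% for the printed start site of Slc20a1. Another start site of Slc20a1, not printed, had 52%. The median over all promoters was 52.7%. A match is a run of letters and was not tested for binding.

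Slc34a1, the main phosphate cotransporter of the brush border, lies on chromosome 13 from 55398187 to 55415592 (positions here are those of the deposited tables, equal to GRCm38). Its level in FPKM, which scales reads to gene length and to 1 size value per library, was 145, 186 and 235 in WT replicates 1, 2 and 3. In Trpm2-/- replicates 1, 2 and 4 it was 23.7, 14.3 and 48.5 FPKM. The highest Trpm2-/- mouse, replicate 4, was thus far below the lowest WT mouse, and it was the Trpm2-/- mouse closest to WT. The log2 fold change was -2.73 (standard error 0.399, 95% interval -3.62 to -1.84, adjusted p = 0.00391 from edgeR). With 1 mouse left out it ranged from -3.31 to -2.41, past the threshold each time. A share of 11.7% of its exonic bases is also covered on the opposite strand by Pfn3, which had 0 counts in every library.

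Slc34a3, the other brush-border cotransporter of this family, lies on chromosome 2 from 25228898 to 25234364 on the minus strand. Its transcript level was the lowest of the 10 carriers, with 73, 79 and 114 counts in WT libraries and 47, 31 and 33 in Trpm2-/- libraries. These were 1.67, 1.88 and 2.59 FPKM in WT and 1.07, 0.787 and 0.774 FPKM in Trpm2-/- mice, without overlap. Its log2 fold change was -1.23 (standard error 0.306, 95% interval -1.92 to -0.54, adjusted p = 0.0316 from edgeR). The call was lost without WT replicate 2, WT replicate 3, Trpm2-/- replicate 2 or Trpm2-/- replicate 4, with edgeR's adjusted p of 0.0898, 0.164, 0.0626 and 0.0606, and values of -1.40 to -1.03 over the 6 mice left out. On the log2(FPKM + 1) scale, which understates changes of low genes, the value was -0.69.

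Slc20a1 (chromosome 2, 129198764 to 129211616) and Slc20a2 (chromosome 8, 22476788 to 22569612) encode the PiT cotransporters, which many cell types use to take up phosphate. Slc20a1 had 26.0, 32.2 and 24.3 FPKM in WT mice and 26.6, 28.8 and 39.2 FPKM in Trpm2-/- mice. Slc20a2 had 13.8, 13.7 and 11.1 FPKM in WT mice and 17.4, 15.5 and 11.8 FPKM in Trpm2-/- mice. The genotypes overlapped for both genes. The log2 fold change of Slc20a1 was 0.18 (95% interval -0.21 to 0.58, adjusted p = 0.543 from edgeR). That of Slc20a2 was 0.20 (95% interval -0.18 to 0.58, adjusted p = 0.475 from edgeR), so that a decrease of the size seen in Slc34a1 lies outside both intervals. For Slc20a1, 13.1% of exonic bases lie under genes of the opposite strand, and for Slc20a2 1.53%.

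Set side by side per length, the 4 cotransporters made up 187, 234 and 273 FPKM in WT mice and 68.7, 59.4 and 100.2 FPKM in Trpm2-/- mice. Slc34a1 alone was 77.8%, 79.6% and 86.1% of this sum in WT mice and 34.4%, 24.0% and 48.3% in Trpm2-/- mice. The PiT pair together were 12.9% to 21.3% of it in WT mice and 50.9% to 74.7% in Trpm2-/- mice. In each Trpm2-/- mouse the PiT transcripts thus exceeded Slc34a1, and in each WT mouse Slc34a1 exceeded them. Slc34a1 was 86.8 to 98.9 times the level of Slc34a3 in WT mice. In Trpm2-/- replicates 1, 2 and 4 it was 22.03, 18.1 and 62.6 times that level, again without overlap of the genotypes. Such ratios within a library do not depend on how libraries are scaled, and as sums over chosen genes they are given without a test.

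**Figure D2:**
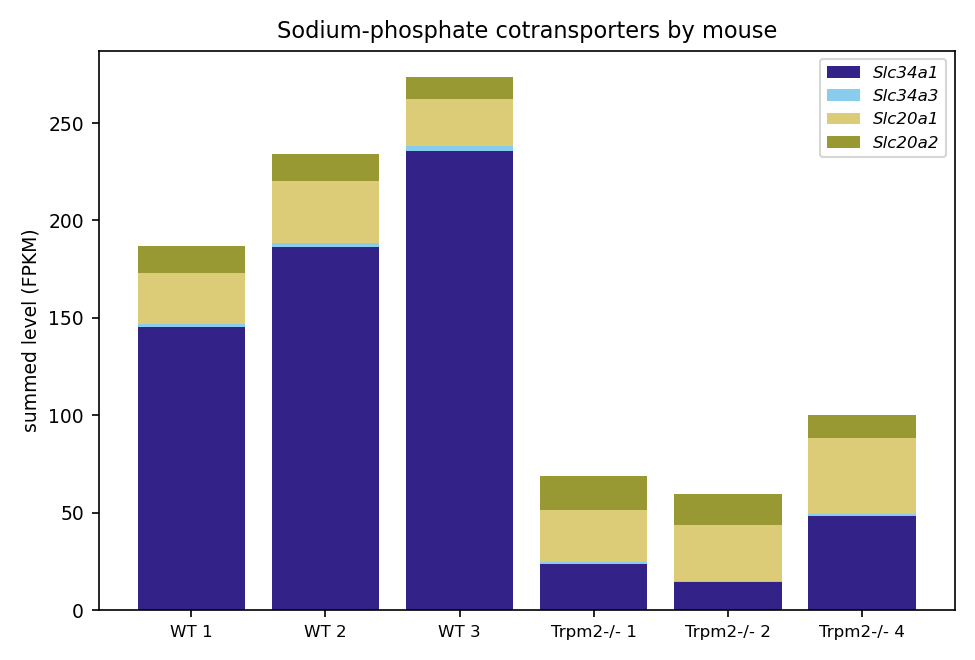
Summed level of the 4 sodium-phosphate cotransporters in each mouse (FPKM, bars from 0), with a color for each gene. Slc34a1 fills 77.8% to 86.1% of the bar in the WT mice and 24.0% to 48.3% in the Trpm2-/- mice, and the absolute heights of Slc20a1 and Slc20a2 overlap between genotypes.

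Slc9a3r1, also called NHERF1, and Pdzk1, also called NHERF3, bind the tails of carriers such as Slc34a1 and Slc9a3 through PDZ domains. Slc9a3r1 (chromosome 11, 115163341 to 115181181) had 169, 180 and 187 FPKM in WT mice and 121, 134 and 126 FPKM in Trpm2-/- mice. It was the tightest of the carriers within a genotype, with a coefficient of variation of 4.94% in WT and 5.37% in Trpm2-/- mice. Its log2 fold change was -0.50, a 1.42-fold decrease (standard error 0.129, 95% interval -0.79 to -0.21, adjusted p = 0.0346 from edgeR). The call held without Trpm2-/- replicate 2 and was lost without any of the other 5 mice. Then edgeR's adjusted p was 0.0564, 0.139 and 0.172 without WT replicates 1, 2 and 3, and 0.0732 and 0.0637 without Trpm2-/- replicates 1 and 4. The value itself stayed between -0.55 and -0.47.

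Pdzk1 (chromosome 3, 96829284 to 96870926) had 47.9, 40.9 and 41.1 FPKM in WT mice and 32.6, 24.9 and 14.3 FPKM in Trpm2-/- mice. The genotypes did not overlap, but the Trpm2-/- mice were spread over a wide range and replicate 4, the highest of them for Slc34a1, was the lowest for Pdzk1. Its log2 fold change of -0.87 missed the threshold (standard error 0.254, 95% interval -1.44 to -0.30, adjusted p = 0.0551 from edgeR). It passed without Trpm2-/- replicate 1 (-1.16, adjusted p = 0.0265 from edgeR) and in 3 of the 11 other settings tried. Of its exonic bases, 41.7% are shared with genes on the opposite strand, among them Gpr89, whose log2 fold change was -0.26. Whether reads were counted by strand is not given in the sources used here, so reads of Pdzk1 and of these genes cannot be told apart there.

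Slc9a3, or NHE3, exchanges sodium for protons at the brush border (chromosome 13, 74121457 to 74169442). It had 10.6, 10.7 and 14.6 FPKM in WT mice and 7.25, 6.67 and 12.6 FPKM in Trpm2-/- mice. Trpm2-/- replicate 4 lay within the WT range, and the other Trpm2-/- mice lay below it. The log2 fold change of -0.45 was not called (standard error 0.241, 95% interval -0.99 to 0.09, adjusted p = 0.257 from edgeR), and without Trpm2-/- replicate 4 it was -0.78 (adjusted p = 0.0279 from edgeR).

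Car4 (chromosome 11, 84957786 to 84966044), anchored to the outer face of the membrane, speeds the turnover of carbonic acid in the lumen. It had 7.87, 9.41 and 15.6 FPKM in WT mice and 3.62, 3.59 and 6.33 FPKM in Trpm2-/- mice. WT replicate 3 stood above the other WT mice, and no Trpm2-/- mouse reached the WT range. Its log2 fold change was -1.29, a 2.45-fold decrease (standard error 0.306, 95% interval -1.98 to -0.61, adjusted p = 0.0260 from edgeR). Without WT replicate 2, WT replicate 3, Trpm2-/- replicate 1 or Trpm2-/- replicate 2 it was no longer called, with edgeR's adjusted p of 0.0574, 0.113, 0.0866 and 0.0606, and over all 6 mice left out its value was between -1.60 and -0.95.

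Slc4a4 carries bicarbonate out of the cell (chromosome 5, 88886818 to 89239653). It had 44.0, 51.4 and 32.5 FPKM in WT mice and 71.9, 30.8 and 29.3 FPKM in Trpm2-/- mice. Trpm2-/- replicate 1 was the highest of all 6 mice and the other Trpm2-/- mice were the lowest, so the mean hid a spread on both sides of WT. The log2 fold change was 0.04 (standard error 0.333, 95% interval -0.71 to 0.78, adjusted p = 0.960 from edgeR), and it was -0.52 without Trpm2-/- replicate 1 (adjusted p = 0.161 from edgeR). Slc4a4 has 2 RefSeq start sites in the promoter table, and a count per gene does not tell its transcripts apart.

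Aqp1 (chromosome 6, 55336432 to 55348555), the water channel of the proximal tubule and thin descending limb, had 171, 160 and 259 FPKM in WT mice. In Trpm2-/- mice it had 30.9, 70.4 and 60.6 FPKM, all far below WT. Its log2 fold change was -1.88 (standard error 0.304, 95% interval -2.56 to -1.20, adjusted p = 0.00564 from edgeR), and it was called with any 1 mouse left out, between -2.13 and -1.60. Red blood cells and vessels also express Aqp1. Globin genes were at or near 0, and Hbb-bt had no count. Of 5 red blood cell genes none passed the filter, and their summed level was at most 0.371 FPKM in WT and 0.488 FPKM in Trpm2-/- mice. How reads shared by similar genes were counted is not given in the sources used here. The globin values may therefore miss such reads and do not measure the red blood cells present. Endothelial genes summed to 24.7 to 42.5 FPKM in WT and 7.30 to 24.3 FPKM in Trpm2-/- mice. Of 5 endothelial genes tested, 1 fell, Plvap, with a log2 fold change of -2.85, and the others had values from -0.60 (Emcn) to 1.09 (Kdr) and were not called. Without Plvap the sum was 9.21, 10.14 and 10.58 FPKM in WT mice and 5.44, 4.798 and 20.1 FPKM in Trpm2-/- mice, with Trpm2-/- replicate 4 above and the other Trpm2-/- mice below every WT mouse. Trpm2-/- replicate 4 was also the highest of all mice for Kdr, at 58.9 CPM against 9.30 and 11.9 CPM in the other Trpm2-/- mice. Thin descending limb genes summed to 24.8 to 70.7 FPKM in WT and 24.7 to 49.9 FPKM in Trpm2-/- mice, and of 4, 0 fell and 1 rose. Only 1 of the 4 had a log2 fold change below 0, Slc14a2 at -1.76 (adjusted p = 0.169 from edgeR). Slc14a2 was widely spread, at 157, 24.9 and 64.5 CPM in WT and 3.37, 35.5 and 33.9 CPM in Trpm2-/- mice. It had the highest mean of these genes in WT mice, 22.4 FPKM, against 6.68 FPKM in Trpm2-/- mice. Whether its reads come from the thin descending limb alone was not tested. The part of these cells in the Aqp1 result was not tested.

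**Figure D3:**
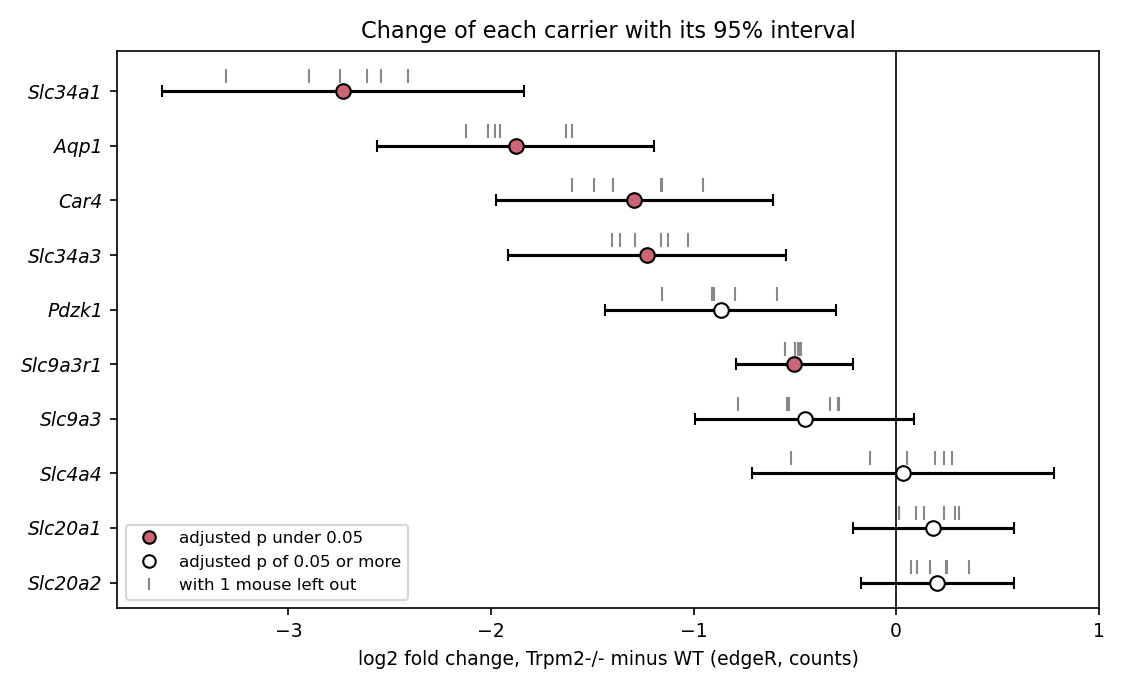
Log2 fold change of each carrier, Trpm2-/- minus WT (horizontal axis, edgeR on counts of 3 against 3 mice), with its 95% interval as a bar and, in gray above it, the value with each mouse left out. Filled points passed an adjusted p under 0.05. Slc34a1 at -2.73 and Aqp1 at -1.88 lie farthest from 0, and the intervals of Slc9a3, Slc4a4, Slc20a1 and Slc20a2 cover 0.

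In WT mice, Aqp1, Slc34a1 and Slc9a3r1 had the highest levels per length, at 197 ± 54.4, 189 ± 45.1 and 179 ± 8.83 FPKM (SD, n = 3), and the neighbours among these overlapped. Pdzk1 at 43.3 ± 3.98 FPKM and Slc4a4 at 42.6 ± 9.54 FPKM overlapped as well and were followed, without overlap, by Slc20a1 at 27.5 ± 4.18 FPKM (SD, n = 3). Slc20a2, Slc9a3 and Car4 came next with means of 12.9, 11.98 and 10.96 FPKM, and Slc34a3 was last at 2.05 FPKM. In Trpm2-/- mice, Slc9a3r1 was first at 127 ± 6.83 FPKM (SD, n = 3), above every other carrier. Slc34a1, at 28.8 ± 17.7 FPKM (SD, n = 3), was now behind Aqp1, Slc4a4 and Slc20a1, although these neighbours overlapped. For each WT library, the summed level of all 10 carriers was 638 FPKM or more, and for each Trpm2-/- library it was 350 FPKM or less.

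The mice of a genotype did not rank the same way for all carriers. WT replicate 3 was the highest WT mouse for Slc34a1, Slc34a3, Slc9a3r1, Slc9a3, Car4 and Aqp1, and the lowest for Slc20a1, Slc20a2 and Slc4a4. Trpm2-/- replicate 4 was the highest Trpm2-/- mouse for Slc34a1, Slc9a3, Car4 and Slc20a1, and the lowest for Pdzk1, Slc34a3, Slc20a2 and Slc4a4. The carrier with the highest mean level over the 6 mice was Slc9a3r1. The protein-coding genes whose log2 CPM followed it most closely over these mice, out of 13577, were Slc25a39, Acy1, Lrpap1, Ndufs3 and Pecr, with Pearson's r of 0.997 to 0.998 across 6 samples. The samples share a genotype split, and 1178 genes (8.68%) had r above 0.9, so the closeness of these 5 is a description only.

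Further lists of genes from the same pathways, compiled by hand with earlier results of these data known, were read from the same fit. Beside the counts of these lists, 7.28% of all genes tested fell and 4.74% rose. In the phosphate list, 3 of 10 fell and 0 rose, with a median log2 fold change of -0.35. They were Pth1r, the receptor of parathyroid hormone (400 ± 12.9 CPM in WT and 194 ± 74.7 CPM in Trpm2-/- mice, SD, n = 3; log2 fold change -1.04), Enpp1, which makes pyrophosphate (-1.12), and Slc17a1, an organic anion transporter first described as a phosphate carrier (-0.94). In the acid-base list, 2 of 13 genes tested fell and 0 rose, with a median of -0.12. They were the membrane-bound carbonic anhydrase Car14 (17.9 ± 4.36 and 5.01 ± 1.17 CPM, SD, n = 3; -1.83) and the anion exchanger Slc26a6 (-1.03). The sulfate transporter Slc26a1 had -0.48 and was not called (adjusted p = 0.0735 from edgeR), and 1 gene of the list, Slc4a5, had too few counts to be tested.

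Among 6 apical scaffolds and linkers, 2 fell and 1 rose. The PDZ protein Pdzd3, also called NHERF4, had a log2 fold change of -0.87 and the Pdzk1 partner Pdzk1ip1 had -1.06. The linker that rose was Msn, or moesin, from 273 ± 28.8 to 547 ± 61.9 CPM (SD, n = 3; 1.00). Among 4 companions of proximal water and solute transport, 3 fell: the aquaporins Aqp7 (-0.87) and Aqp11 (-0.94) and the claudin Cldn10 (-1.67).

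The carriers share the proximal tubule, although Slc4a4, the PiT pair, Car4 and Aqp1 occur in other cells too. Of 10 markers of that segment, 9 fell and 0 rose, against 7.28% and 4.74% of all genes. All 10 were lower without overlap, against 16.8% of all genes, and their median log2 fold change was -1.35. Their summed level was 384 to 451 FPKM in WT mice and 147 to 209 FPKM in Trpm2-/- mice. In RNA of kidney tissue, fewer proximal tubule cells and less carrier RNA in each cell cannot be told apart. The study's methods name kidney tissues and do not say which part of the organ was sequenced. The part of this marker list in the carriers' result was not tested. The log2 fold changes of these markers ran from -1.97 for Slc22a7 to -0.49 for Hnf4a, the one not called, and those of the carriers from -2.73 for Slc34a1 to 0.20 for Slc20a2. Of 5 injured tubule genes, 2 rose (median 0.51; summed level 1037 to 1234 FPKM in WT and 1480 to 1857 FPKM in Trpm2-/- mice). Of 3 thick ascending limb genes 1 fell, Umod at -1.97, with a summed level of 195 to 567 FPKM in WT and 49.7 to 193 FPKM in Trpm2-/- mice. Intercalated cell genes had 0 of 4 called (66.6 to 90.1 FPKM in WT and 65.8 to 99.5 FPKM in Trpm2-/- mice). Leukocyte genes had 0 of 4 tested called (47.1 to 55.9 and 46.6 to 78.8 FPKM). Without overlap, 2 of the 4 were higher, Lyz2 (log2 fold change 1.35) and Ptprc (0.76), against 16.7% of all genes. The other 2 had values below 0. Cd68, among these, held most of the sum, with a mean of 45.6 FPKM in WT and 44.1 FPKM in Trpm2-/- mice.

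**Figure D4:**
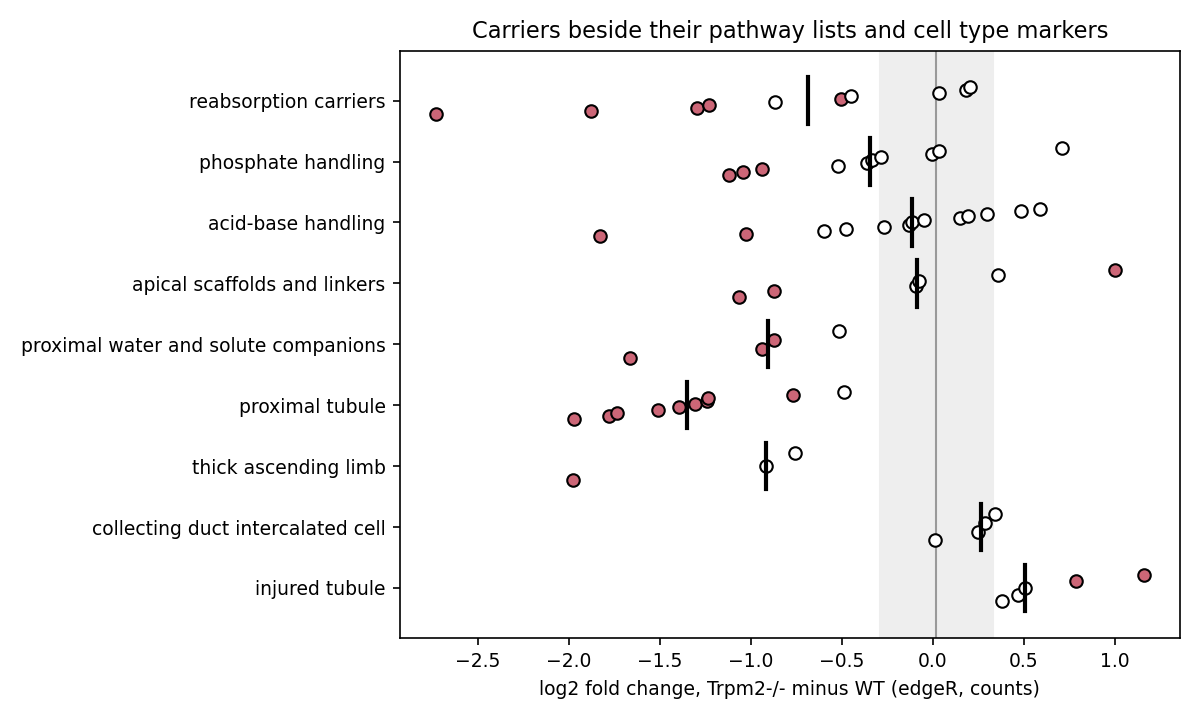
Log2 fold change of single genes, Trpm2-/- minus WT (horizontal axis, edgeR), in the carriers, their pathway lists and 4 cell type marker lists; filled points passed an adjusted p under 0.05, black bars are medians and the gray band holds the middle of all genes tested, from -0.29 to 0.33. The medians are -0.68 for the carriers, -1.35 for the proximal tubule and 0.51 for injured tubule genes.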

How the data were processed

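RNA of kidney tissue from 3 WT and 3 Trpm2-/- mice had been extracted with Trizol. It was made into libraries with the NEBNext Ultra II kit and sequenced on an Illumina HiSeq instrument. The submitters' processing notes name HISAT2, StringTie and the build mm9, but the positions in the deposited tables equal those of GRCm38 (GENCODE release M21) for all 10 carriers and for 98.3% of 54409 shared gene identifiers. The counting tool and its strand setting are not given in the sources used here. The count values are whole reads per gene as the authors deposited them, without normalization. The deposited FPKM values equal these reads divided by gene length and by 1 value per library, from 16708073 to 18694690. These values are not the sums of the gene counts, which were 14053307 to 17150089, and their origin is not given in the sources used here.

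Counts were tested in R 4.3.3 with edgeR 4.0.16: filterByExpr, TMM, and the two-sided quasi-likelihood test of genotype over 15816 genes with Benjamini-Hochberg adjustment. The standard error of a log2 fold change was taken from its F statistic, and 95% intervals use the test's degrees of freedom. CPM values use TMM-normalized library sizes. Alternatives were other normalizations and filters, the DESeq2 1.42.0 Wald test, limma 3.58.1 with voom or on log2 FPKM with a pseudocount of 1 or 0.1, a table without the mitochondrial genome or without noncoding genes, a replicate block, and 1 mouse left out at a time. Tests were checked on simulated counts. Of the carriers' transcript windows of 75 bases, 0 occurred in transcripts of other genes. The carriers, lists and tests were chosen with earlier results of these data known. Named were all carriers, up to 3 genes of each pathway list with the smallest p, and the 5 genes most like the carrier of highest mean FPKM. A pathway list with an item not reported here was left out. Slc4a5, Slc34a2, Plvap, Emcn, Kdr, Hbb-bt, Slc14a2, Slc22a7, Hnf4a, Umod, Lyz2, Ptprc, Cd68, Pfn3 and Gpr89 were named after their values were seen.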

Additional observations from a re-analysis of the deposited data

How the results depend on the processing

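Of the carriers' calls, those of Slc34a1, Aqp1, Car4, Slc34a3 and Slc9a3r1 held in all 11 settings other than the replicate block and mice left out; Pdzk1 was added by DESeq2, limma-voom and no filter on low counts, and Slc9a3 by no filter. With no filter, 28884 genes were tested in place of 15816, of which 1692 fell and 1262 rose, in place of 1152 and 750. With the replicate block, 3 carriers fell, and 661 genes of all fell and 341 rose; Slc34a1, Aqp1 and Car4 were still called and Slc34a3 (adjusted p = 0.218 from edgeR) and Slc9a3r1 (0.207) were not. The titles share only the numbers 1 and 2 between genotypes, the mice are different animals, and the correlation of same-numbered mice's deviations from their genotype's mean over 15816 genes was 0.0641 and -0.0120, so the numbers were not taken as pairs. With each mouse left out, 2 to 4 carriers fell and 0 rose, and over all genes 470 to 1240 fell and 160 to 819 rose. Values that turned sign were those of Slc4a4, to -0.074 with limma-voom, -0.056 with limma on log2(FPKM + 1) with or without a mean FPKM of at least 1, -0.059 on log2(FPKM + 0.1), -0.020 with the replicate block, -0.13 without WT replicate 3 and -0.52 without Trpm2-/- replicate 1 (up to 0.27 with other mice left out), and that of Slc20a1, to -0.069 with the replicate block. The cause was not tested, and where a mouse was left out the fit also rested on fewer mice. Depth limits Slc34a3 most, at 31 to 114 counts per library.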

Other observations

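Slc34a2, the third cotransporter of the SLC34 family and best known from lung and intestine, was singled out after its values were seen. It had 31.3, 28.3 and 21.8 CPM in WT mice and 39.1, 63.4 and 30.7 CPM in Trpm2-/- mice, with Trpm2-/- replicate 4 inside the WT range. Its log2 fold change was 0.71 and was not called (adjusted p = 0.102 with edgeR; standard error 0.254), while those of Slc34a1 and Slc34a3 were -2.73 and -1.23.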
